A study of Mus musculus with 7 samples.

Results

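Small RNAs of cultured mouse testis were compared between a pair of culture supplements, and the comparison rested on 2 of the 7 libraries of the study. Both libraries came from testes of CD1 mice of 10.5 days post-partum (dpp), entered as 10 days in the sample records, that were cut into explants and cultured for 12 days at a gas-liquid interface over agarose. T10-12K was cultured with KSR (KnockOut Serum Replacement, a defined substitute for serum) and T10-12A with AlbuMAX I (a lipid-rich bovine serum albumin). The paper describes AlbuMAX I as an element of KSR. It reports that explants on AlbuMAX I were smaller and that their cells often had aberrant nuclei. Its cell counts therefore come from KSR cultures only. No mutation or transgene is named for any library. The 331 miRNAs of the deposited table made up the comparison, and all 331 are accounted for. Each condition was sequenced as 1 library, so no test between supplements was possible and no p-value is given. Per the methods, a pair of explants was homogenised for each RNA isolation. The number of animals behind each library is not given in the sources used here, so the supplement and any difference between these 2 tissue samples cannot be told apart.

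miRNAs are short RNAs cut from hairpin precursors that guide Argonaute proteins to partly complementary messages, mostly through the seed, the bases near the 5′ end, and lower the output of those messages. A hairpin can release a miRNA from its 5′ side (5p) and another from its 3′ side (3p). Testis miRNAs come from germ cells, whose set changes as they pass through meiosis, and from Sertoli, Leydig, peritubular, endothelial and blood cells. Bulk tissue mixes these cells, so fewer cells of a type and less RNA per cell cannot be told apart.

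The mature sequences that the comparison turned on are printed 5′ to 3′ from RefSeq (GRCm38.p6), with the seed (bases 2 to 8) in capitals. The first set had higher levels with AlbuMAX I. miR-146a-5p and miR-146b-5p share a seed and come from separate chromosomes, and miR-25-3p, miR-92a-3p and miR-92b-3p share another.
miR-146a-5p: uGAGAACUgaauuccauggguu
miR-146b-5p: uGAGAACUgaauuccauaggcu
miR-101a-3p: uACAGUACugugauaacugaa
miR-126a-3p: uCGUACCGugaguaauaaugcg
miR-126b-3p: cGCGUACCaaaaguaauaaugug
miR-29a-3p: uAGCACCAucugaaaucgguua
miR-1247-5p: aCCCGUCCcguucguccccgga
miR-25-3p: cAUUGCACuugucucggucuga
miR-92a-3p: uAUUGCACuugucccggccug
miR-92b-3p: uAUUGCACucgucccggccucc

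The second set had lower levels with AlbuMAX I. It is shown because let-7e-5p and miR-98-5p carry the let-7 seed, miR-148a-3p and miR-148b-3p share a seed, and miR-101b-3p is a relative of miR-101a-3p with other letters in its seed window.
let-7e-5p: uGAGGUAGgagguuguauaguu
miR-98-5p: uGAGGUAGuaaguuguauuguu
miR-148a-3p: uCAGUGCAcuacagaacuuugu
miR-148b-3p: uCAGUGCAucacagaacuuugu
miR-101b-3p: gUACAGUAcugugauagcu
miR-107-3p: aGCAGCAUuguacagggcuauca
miR-204-5p: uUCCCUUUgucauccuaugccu
miR-21a-3p: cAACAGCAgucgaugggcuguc

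The third set, from the X chromosome, is shown because its members are nearly identical and their shares of the reads differed between the 2 libraries. Counted from 1 at the 5′ end of miR-465c-5p, miR-465b-5p differs from it by C13U.
miR-465a-5p: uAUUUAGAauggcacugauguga
miR-465b-5p: uAUUUAGAauggugcugaucug
miR-465c-5p: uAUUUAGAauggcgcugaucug

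The deposited values were reads divided by 1 factor per library, and the reads behind them were recovered as whole multiples of the value of 1 read. They numbered 7075528 in T10-12K and 8452588 in T10-12A over all listed miRNAs, within the range of 1628770 (adult testis, TAD) to 13397407 (T10, the 10.5 dpp testis before culture) over the 7 libraries. Levels are given as counts per 1000000 reads on listed miRNAs (CPM), and a ratio as the log2 of CPM in T10-12A over CPM in T10-12K, positive where AlbuMAX I was higher. CPM are shares, so a rise of an abundant miRNA lowers all others. The typical miRNA held a smaller share in both cultures than in T10, which bears on every level described as below T10. The other scalings tried moved all ratios together by 0.0059 to 0.05. The 95% intervals cover counting error only. The spread between explants or cultures is unknown.

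Of the 331 miRNAs, 306 had reads in both libraries, 12 were at 0 in both, 9 were at 0 in T10-12K only and 4 in T10-12A only. A mean over both libraries of at least 10 CPM was reached by 210 miRNAs, of which 112 reached 100 CPM. Over the 210, Spearman's rho between the libraries was 0.979, given as a description. A like order of levels thus held in both libraries over a range from about 10 CPM to miR-10b-5p, which alone took 48.9% of the reads with KSR and 50.6% with AlbuMAX I.

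Among the 210 miRNAs, 15 were at least 1.5-fold higher with AlbuMAX I (7.14%) and 15 at least 1.5-fold lower (7.14%), and 180 lay within 1.5-fold. The median log2 ratio was -0.01 and, under 4 of the other 5 scalings, from 0.0076 to 0.03, and the middle of the distribution ran from -0.27 (lower quartile) to 0.23 (upper quartile). At 2-fold, 4 were higher and 1 was lower. The filter was a mean of both libraries, so a miRNA could pass it through a high level in 1 of them. Calls with under 10 CPM in 1 library included miR-465b-5p, miR-1247-5p and miR-6539 upwards and miR-106b-5p downwards. The summed reads of miR-465b-5p and the near-identical miR-465c-5p had a log2 ratio of only -0.06. The shares of 7.14% include these calls, and no count with both libraries at 10 CPM was made. The calls were spread unevenly over levels. Of the 112 miRNAs of at least 100 CPM, 6 were 1.5-fold higher and 0 lower, while of the 98 between 10 and 100 CPM 9 were higher and 15 lower. Among the 109 miRNAs under 10 CPM with reads in at least 1 library, 30 passed 1.5-fold upwards and 33 downwards, and the median half-width of their intervals was 0.74 on the log2 scale, against 0.13 over the 210.

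**Figure D1:**
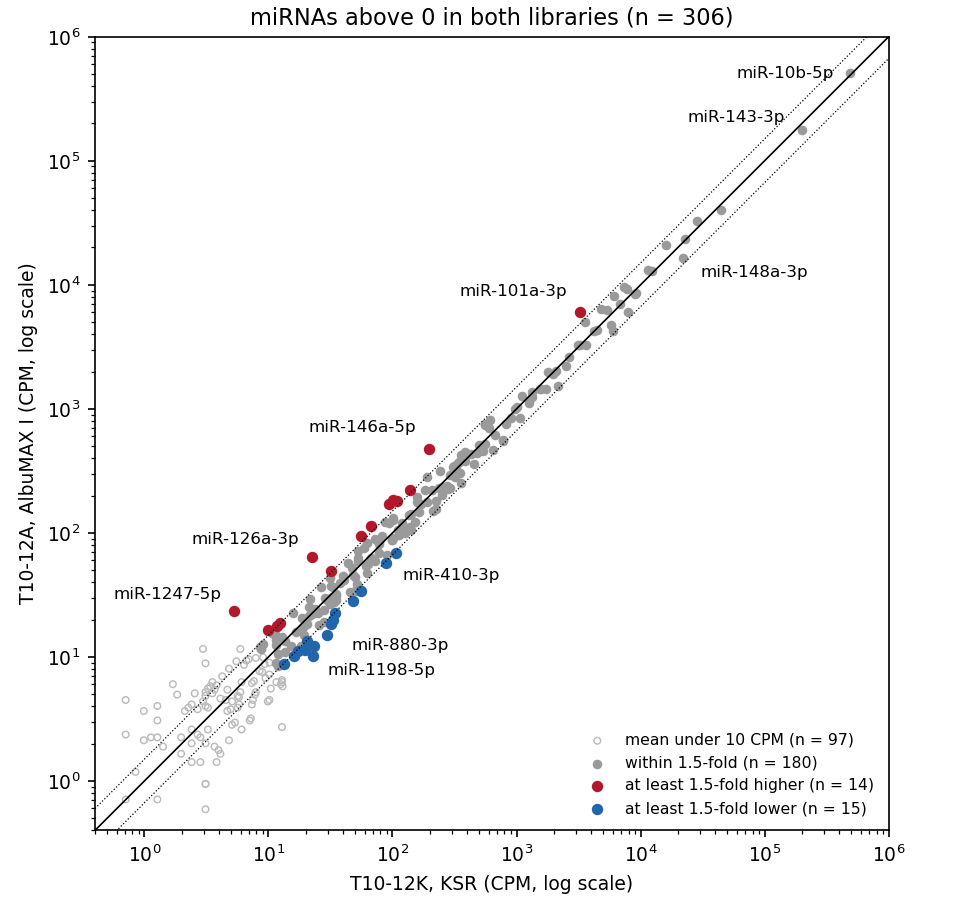
Each point is 1 of the 306 miRNAs with reads in both libraries, with CPM in T10-12K on the x axis and in T10-12A on the y axis, both on log scales, the diagonal marking equal levels and the dotted lines 1.5-fold. The cloud is narrow above 100 CPM, where miR-146a-5p (197 and 478 CPM) and miR-101a-3p (3244 and 5985 CPM) stand above the dotted line, and it widens below 10 CPM.

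The largest increase of an abundant miRNA was that of miR-146a-5p, a brake on innate immune signalling that NF-κB induces. Its level was 197 CPM (1393 reads) in T10-12K and 478 CPM (4041 reads) in T10-12A, a log2 ratio of 1.28 (95% interval 1.19 to 1.37). It had been 47.9 CPM in T10 and was 140 CPM in TAD, so both cultures lay above both uncultured testes and AlbuMAX I lay furthest. Its seed relative miR-146b-5p was far more abundant, with 3533 CPM in T10-12K and 4977 CPM in T10-12A, and was 1.41-fold higher (log2 0.49, 0.47 to 0.52). Both again exceeded T10 (1442 CPM) and TAD (2181 CPM). The mature sequences differ at 2 bases outside the seed (G18A and U21C, counted in miR-146a-5p). The genes lie on chromosome 11 (43374435 to 43374456, outside any annotated gene) and in an intron of Mfsd13a on chromosome 19 (46342790 to 46342811).

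miR-101a-3p, a repressor of the Polycomb methyltransferase Ezh2, was the most abundant miRNA among those past 1.5-fold. It measured 3244 CPM (22950 reads) with KSR and 5985 CPM (50587 reads) with AlbuMAX I, against 1599 CPM in T10 and 3680 CPM in TAD. The log2 ratio was 0.88 (0.86 to 0.91). The related miR-101b-3p went the other way, with 211 CPM in T10-12K and 149 CPM in T10-12A (log2 -0.50, -0.61 to -0.39), while T10 held 213 CPM and TAD 186 CPM. Its mature sequence shares a long stretch with that of miR-101a-3p, offset at the 5′ end. How reads of such similar entries were divided is not given in the sources used here, so this opposite direction is less certain. miR-101a lies in an exon of the long non-coding RNA E130102H24Rik on chromosome 4 (101346957 to 101346977), and miR-101b in an intron of Rcl1 on chromosome 19 (29135338 to 29135356).

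All 3 listed products of the miR-126 locus were higher with AlbuMAX I. miR-126 is the characteristic miRNA of endothelial cells and lies inside Egfl7, a gene that endothelium expresses. miR-126a-5p measured 101 CPM (716 reads) in T10-12K and 185 CPM (1564 reads) in T10-12A, a log2 ratio of 0.87 (0.74 to 1.00). The opposite arm, miR-126a-3p, measured 22.3 CPM (158 reads) and 64.2 CPM (543 reads), a log2 ratio of 1.52 (1.27 to 1.78). In both arms the KSR library lay below T10 (148 CPM for 5p and 33.1 CPM for 3p) and the AlbuMAX I library above it. TAD held 336 CPM of 5p, the highest level, and 68.1 CPM of 3p. For 3p that is close to the 64.2 CPM of T10-12A, and TAD had the fewest reads of the libraries, so their order is uncertain.

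miR-126b-3p, with 93.8 and 172 CPM (log2 0.88, 0.74 to 1.01), is not independent of these. Its sequence is the reverse complement of a stretch of the Mir126a hairpin (chromosome 2, 26591363 to 26591385, on the strand opposite to Egfl7). Its reads were 0.905 to 0.950 times those of miR-126a-5p in all 7 libraries. Whether the counting used strand is not given in the sources used here, and reads of both strands cannot be told apart. The sum over the 3 entries was 217 CPM in T10-12K and 421 CPM in T10-12A.

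3 further miRNAs of at least 100 CPM were higher by smaller factors. miR-29a-3p, which targets collagen and other matrix messages, measured 138 and 222 CPM (log2 0.68, 0.57 to 0.79) and had been 25.6 CPM in T10 and 386 CPM in TAD. miR-5099 measured 109 and 181 CPM (log2 0.72, 0.60 to 0.85), below its 267 CPM in T10. miR-429-3p, of the epithelial miR-200 family, measured 190 and 284 CPM, and its 1.499-fold ratio (log2 0.58, 0.49 to 0.68) fell just short of the limit. It passed 1.5-fold under each of the other 5 scalings tried. Its cluster neighbours on chromosome 4 did not follow, with a log2 ratio of 0.13 for miR-200b-3p and -0.11 for miR-200a-3p.

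The list of largest increases at this level was completed by miR-140-3p (87.1 and 123 CPM, log2 0.50), a miRNA of cartilage, and by miR-486b-5p (559 and 758 CPM, log2 0.44), known from red blood cells and muscle. The counts of miR-486a-5p were almost the same (564 and 762 CPM). Both miR-486 entries lay below T10 (about 1472 CPM for miR-486b-5p) in either culture.

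Between 10 and 100 CPM, the highest measured ratio apart from miR-465b-5p was that of miR-1247-5p, encoded in an exon of Dio3os in the imprinted Dlk1-Dio3 region (chromosome 12, 110278094 to 110278115). It had 37 reads (5.23 CPM) in T10-12K and 197 reads (23.3 CPM) in T10-12A, a log2 ratio of 2.16 (1.65 to 2.66). With 10 CPM added to both levels the log2 ratio was 1.13, so its size depends on how low levels are treated. miR-183-5p, best known from sensory cells, measured 66.6 and 115 CPM (log2 0.78, 0.63 to 0.94), and its cluster neighbour miR-182-5p had a log2 ratio of 0.41. miR-92b-3p measured 56.1 and 93.9 CPM (log2 0.74, 0.57 to 0.92). The other miRNAs past 1.5-fold upwards were miR-6539 (log2 0.73), miR-449c-5p (0.61), miR-450b-5p (0.59) and miR-202-3p (0.59).

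No miRNA of at least 100 CPM was 1.5-fold lower with AlbuMAX I, and the 10 largest decreases at that level ran from log2 -0.55 to -0.43. The most abundant of them was miR-148a-3p, the sixth most abundant miRNA of the pair, with 22145 CPM in T10-12K and 16437 CPM in T10-12A (log2 -0.43, -0.44 to -0.42). T10 had held 22969 CPM and TAD held 13868 CPM, so the KSR library stayed near the starting testis and the AlbuMAX I library lay between T10 and TAD. Its other arm, miR-148a-5p, was lower by a like factor, with 226 and 155 CPM (log2 -0.55, -0.65 to -0.44). Of its seed relatives, miR-148b-3p was also lower (282 and 224 CPM, log2 -0.33) and miR-152-3p was not (46.8 and 51.8 CPM, log2 0.15).

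Several other abundant miRNAs were about 1.4-fold lower. miR-375-3p, a miRNA of pancreatic islets that is also abundant in adult testis, measured 778 CPM in T10-12K and 552 CPM in T10-12A (log2 -0.50, -0.55 to -0.44), against 86.7 CPM in T10 and 9015 CPM in TAD. miR-204-5p, encoded in an intron of Trpm3 on chromosome 19, measured 2148 and 1521 CPM (log2 -0.50, -0.53 to -0.46). miR-22-3p measured 5963 and 4267 CPM (log2 -0.48, -0.50 to -0.46). Both cultures thus held far more miR-375-3p than the testis before culture, with the higher level in the KSR library.

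miR-107-3p, from an intron of the pantothenate kinase gene Pank1, measured 358 and 252 CPM (log2 -0.51, -0.59 to -0.43), and miR-125b-1-3p 142 and 106 CPM (log2 -0.43, -0.56 to -0.30). let-7e-5p measured 784 and 557 CPM (log2 -0.49, -0.55 to -0.44) and miR-98-5p 643 and 468 CPM (log2 -0.46, -0.52 to -0.40). Both belong to the let-7 family described with the lists.

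The decreases past 1.5-fold lay, in their means, between 10 and 100 CPM. miR-1198-5p had 162 reads (22.9 CPM) in T10-12K and 86 reads (10.2 CPM) in T10-12A, a log2 ratio of -1.17 (-1.55 to -0.79), the lowest of the 210. miR-880-3p, of the X-linked testis cluster, had 209 and 126 reads (29.5 and 14.9 CPM, log2 -0.99, -1.31 to -0.67). miR-21a-3p had 164 and 103 reads (log2 -0.93, -1.28 to -0.57). These are small counts, and their intervals span a wide range of folds.

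miR-652-3p (19.8 and 11.4 CPM, log2 -0.80) and miR-708-3p (31.8 and 18.5 CPM, log2 -0.78) followed. The other 10 were miR-195a-5p, miR-421-3p, miR-99b-3p, miR-218-5p, miR-672-5p, miR-410-3p, miR-468-5p, miR-106b-5p, miR-582-3p and miR-361-5p, from log2 -0.76 to -0.60. Of the 30 miRNAs past 1.5-fold in either direction, the 29 with reads in both libraries all had an interval that excluded 0. The same was true of 148 of all 210 miRNAs, and of 94 of the 112 of at least 100 CPM. An interval without 0 thus does not set the 29 apart.

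**Figure D2:**
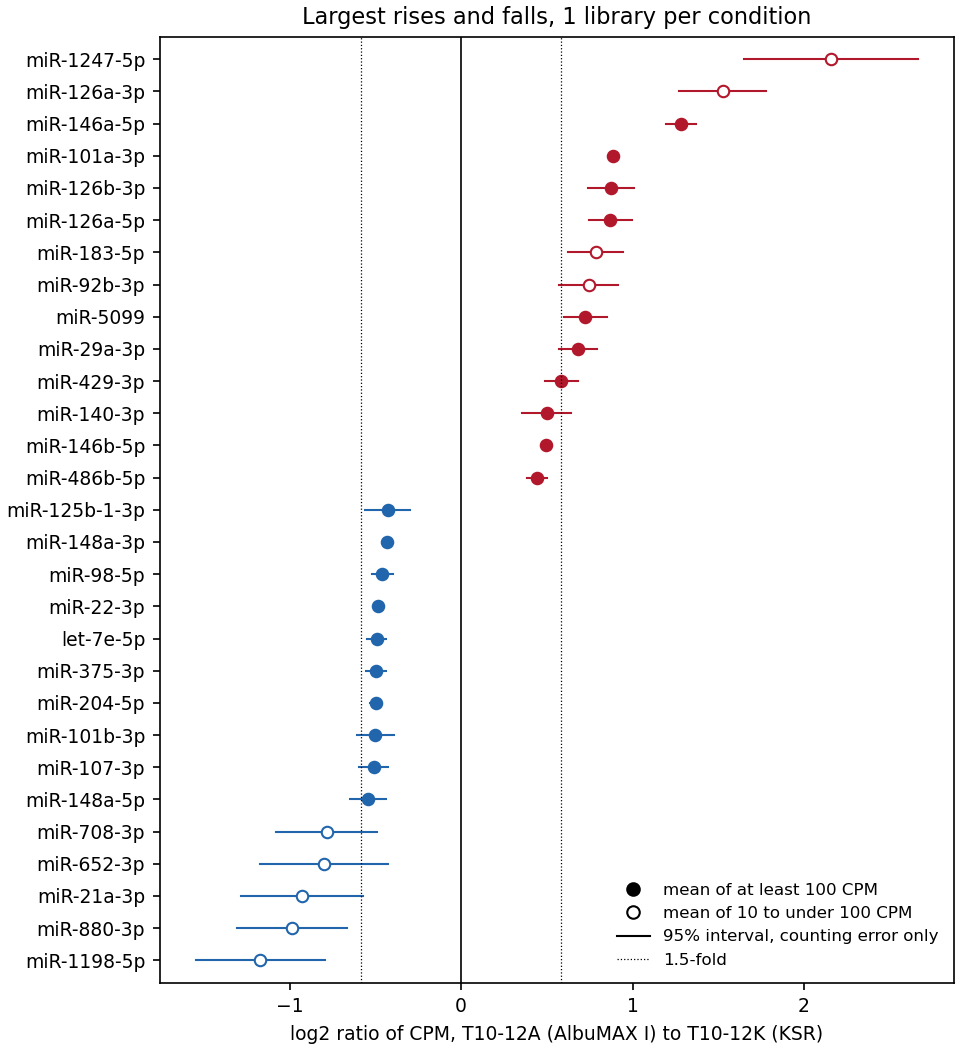
Points give the log2 ratio of CPM in T10-12A to T10-12K for the 10 largest increases and 10 largest decreases of at least 100 CPM (filled) and the 5 largest of each between 10 and 100 CPM (open), without miR-465b-5p, whose ratio is a lower bound, and lines give 95% intervals of counting error. The filled points run from -0.55 to 1.28 with short intervals, and none of the filled decreases reaches the dotted 1.5-fold line, while all 5 open decreases pass it.

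miR-465b-5p had 0 reads in T10-12K and 861 reads (102 CPM) in T10-12A. A listed 0 can stand for up to 4 reads, since the lowest value listed in either library stood for 5 reads. With the 0 set to 5 reads, the miRNA was at least 144-fold higher with AlbuMAX I. It was also at 0 in T10, T6-12K, T6-12A and TAD and had 10 reads in T6, the 6.5 dpp testis before culture, so these 861 reads had no counterpart in the other 6 libraries.

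The near-identical miR-465c-5p had 8964 reads (1267 CPM) in T10-12K and 9425 reads (1115 CPM) in T10-12A. miR-465b-5p was 8.37% of the reads of both entries in T10-12A. Summed, they held 1267 and 1217 CPM (log2 -0.06, -0.10 to -0.02), so the sum of both entries barely differed while the share of each did. Whether the counting or the RNA differed was not tested. The 3p entries of the family summed to 250 CPM in T10-12K and 219 CPM in T10-12A (log2 -0.19, -0.28 to -0.10). They have identical sequences over their shared length and their counts were tied, with miR-465a-3p at 0.50 times miR-465c-3p in all 7 libraries. These genes lie within a stretch of the X chromosome from 66825965 to 66839121, and the value of any of their entries is uncertain because the way reads of near-identical copies were divided is not given in the sources used here.

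The 10 most abundant miRNAs held 85.6% of the reads in T10-12K and 85.1% in T10-12A, and 9 were shared between the libraries. miR-143-3p, of smooth muscle and mesenchyme, measured 199649 CPM with KSR and 176083 CPM with AlbuMAX I, the largest difference in share. miR-10b-5p, from the Hoxd cluster, took 1.64 percentage points more with AlbuMAX I. let-7f-5p took 4.43% and 4.01%, and miR-470-5p and miR-871-3p, both of the X-linked testis cluster, took 2.86% and 3.25%, and 1.61% and 2.09%. In log2 terms the 10 lay between -0.43 (miR-148a-3p) and 0.38 (miR-871-3p).

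The lists of related miRNAs were read against the 210, of which 7.14% passed 1.5-fold in each direction and whose median was -0.01. Of the 210, 101 lay above 0 and 109 below. The list for endothelium was the only one whose members of at least 10 CPM (3 of 3) were all past 1.5-fold, apart from the miR-29 list, which had 1 such member, miR-29a-3p. All 3 endothelial entries come from 1 locus. No list had more than 1 member that was 1.5-fold lower.

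**Figure D3:**
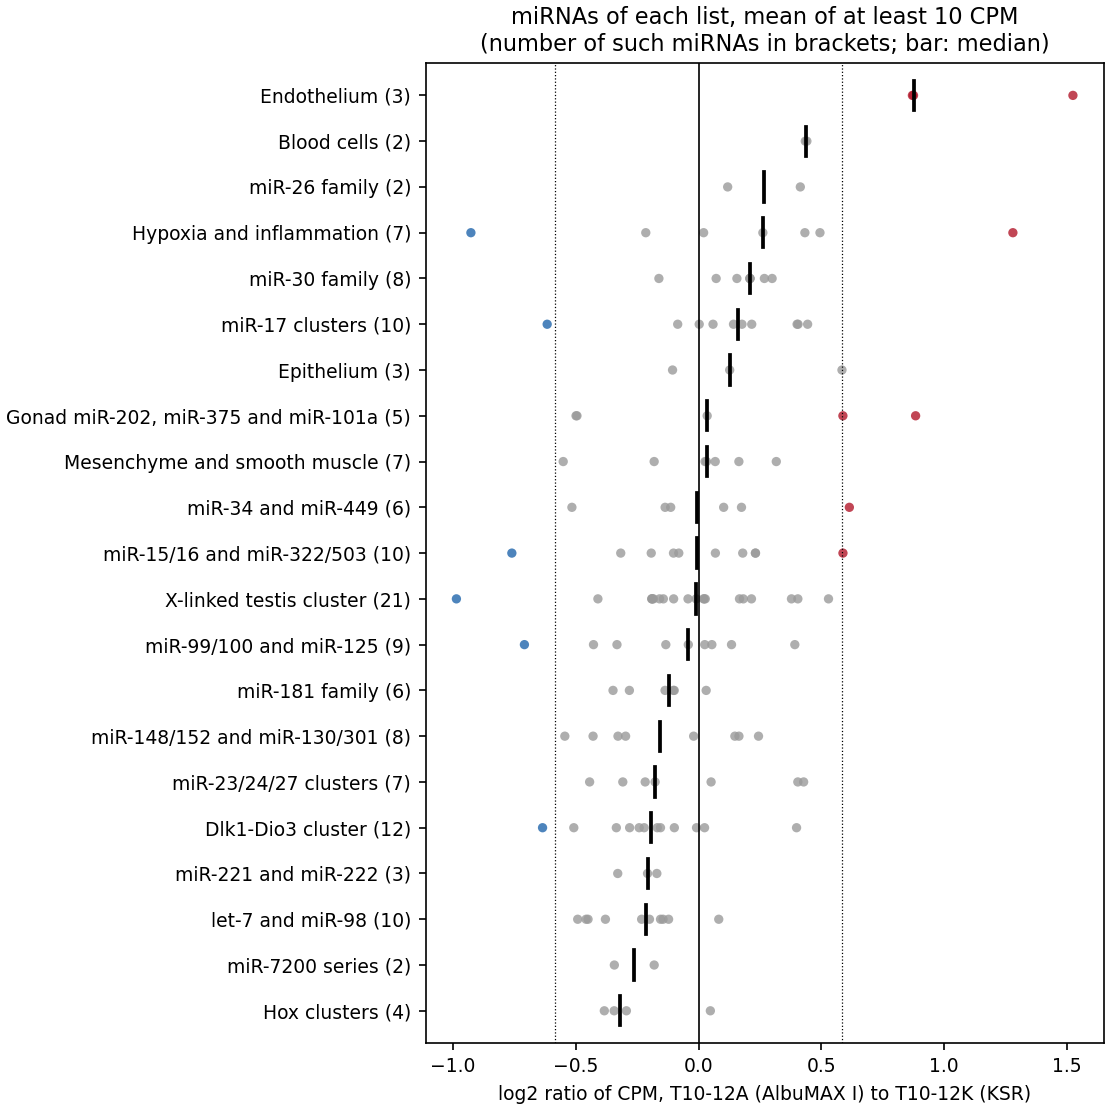
Each point is 1 miRNA with a mean of at least 10 CPM, placed by its log2 ratio of CPM in T10-12A to T10-12K, in 21 lists ordered by their median (black bar), with dotted lines at 1.5-fold and miR-465b-5p not drawn. The endothelial list lies apart at a median of 0.88, and the medians of the other 20 run from -0.32 to 0.44.

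The let-7 family, which accompanies differentiation and is held back by Lin28, was mostly lower by small factors without passing the limit. Of its 10 members of at least 10 CPM, 9 lay below 0, against 109 of the 210, and 0 were past 1.5-fold. The members ran from -0.49 to 0.08 with a median log2 ratio of -0.22, and the lower quartile of the 210 was -0.27. let-7c-5p measured 7921 CPM in T10-12K and 6088 CPM in T10-12A (log2 -0.38), let-7f-5p 44337 and 40096 CPM (log2 -0.15) and let-7a-5p 9276 and 8521 CPM (log2 -0.12). let-7i-5p was the exception with 12304 and 13023 CPM (log2 0.08). Summed over the listed members, the family took 79906 CPM with KSR and 72874 CPM with AlbuMAX I, both below T10 (91006 CPM). The typical miRNA of the 210 was also below T10 in CPM, with a median log2 ratio of -0.56 with KSR and -0.55 with AlbuMAX I. Near-identical members can share reads, so single members are less certain than the sum.

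miR-34 and miR-449, which share a seed and serve multiciliated cells and late spermatogenesis, differed strongly between the testis before culture and the adult testis and little between the supplements. Their sum was 229 CPM in T10, 2048 CPM in T10-12K, 1928 CPM in T10-12A and 25937 CPM in TAD. Both cultures thus stood near each other, well above the starting testis and well below the adult one. miR-34c-5p measured 1588 and 1445 CPM (log2 -0.14, -0.17 to -0.10) and miR-449a-5p 209 and 224 CPM (log2 0.10, 0.0037 to 0.20). miR-449c-5p, with 32.1 and 49.1 CPM, was the 1 member of 6 past 1.5-fold (log2 0.61).

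The X-linked testis cluster, a rapidly evolving group expressed in the testis, divided evenly. Of its 21 members of at least 10 CPM, 10 lay above 0 and 11 below, with 1 higher (miR-465b-5p), 1 lower (miR-880-3p) and a median of -0.01, which was above 0 under 4 of the other 5 scalings. Its sum was 58999 CPM with KSR and 68401 CPM with AlbuMAX I, carried by miR-470-5p (28645 and 32497 CPM) and miR-871-3p (16058 and 20870 CPM). Both sums lay below T10 (95943 CPM) and TAD (137357 CPM).

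The imprinted Dlk1-Dio3 cluster, active in fetal and neonatal tissue, lay mostly below 0. Of 38 listed members, 12 reached 10 CPM, 10 of these lay below 0, and the median was -0.20. miR-410-3p was the 1 member of the list past 1.5-fold, with 88.0 CPM in T10-12K and 56.7 CPM in T10-12A (log2 -0.64). Its level had been 498 CPM in T10. miR-1247-5p, from the same region but not in the list, went the other way (log2 2.16). The sum over the listed members was 14559 CPM in T10, 3924 CPM in T10-12K, 3447 CPM in T10-12A and 1593 CPM in TAD, an order in which the AlbuMAX I library stood nearer to the adult testis by a small step.

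The list for hypoxia and inflammation had 7 members, with a median of 0.26, 1 past 1.5-fold upwards (miR-146a-5p) and 1 downwards (miR-21a-3p). miR-21a-5p, which accompanies tissue injury and fibrosis, measured 7751 and 9291 CPM (log2 0.26, 0.25 to 0.28), above T10 (2359 CPM) in both. miR-210-3p, the standard miRNA target of hypoxia-inducible factor, measured 278 CPM in T10-12K and 239 CPM in T10-12A (log2 -0.22, -0.30 to -0.13), against 48.1 CPM in T10. The members of this list thus did not share a direction between the supplements, although both cultures exceeded T10 for each of these 4 named miRNAs.

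Among markers of other cell types, 2 of 9 blood entries reached 10 CPM, and these were the miR-486 pair. Their sum with the remaining entries was 1136 CPM in T10-12K and 1534 CPM in T10-12A, and the erythroid miR-451a and miR-144-3p and the lymphocyte miR-150-5p were at 0 in both libraries. The endothelial sum was 217 and 421 CPM. Mesenchymal and smooth muscle entries, of which 7 of 10 reached 10 CPM, had a median of 0.03 and sums of 201565 and 178075 CPM, nearly all miR-143-3p. The epithelial list had 3 of 5 such entries, with a median of 0.13. As the tissue label says, the X-linked testis cluster and miR-34c-5p were present in both libraries. Of striated muscle 1 entry was listed (6.08 and 2.60 CPM), and of liver none was listed. What part the different content of endothelial markers had in other results was not tested.

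The families with a shared seed moved unevenly. All 3 members with the seed AUUGCAC were higher, miR-25-3p at log2 0.40 (615 and 812 CPM), miR-92a-3p at 0.40 (555 and 735 CPM) and miR-92b-3p at 0.74. They belong to the miR-17 clusters and their relatives, which promote proliferation, where 8 of 10 members of at least 10 CPM lay above 0, with a median of 0.16 and 1 past 1.5-fold downwards (miR-106b-5p). The miR-30 family had 7 of 8 above 0 (median 0.21, 0 past 1.5-fold) and the miR-26 family both of its 2 (0.12 and 0.41).

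In the opposite direction, all 4 members with the miR-181 seed ACAUUCA were lower, from -0.35 to -0.10, and miR-221-3p, miR-221-5p and miR-222-3p, whose known targets include the stem cell factor receptor Kit, ran from -0.33 to -0.17. The medians of the list of the miR-148 and miR-130 families (-0.16), the miR-23/24/27 clusters (-0.18) and the Hox clusters (-0.32) were below 0 with 0 members past 1.5-fold. The miR-99/100 and miR-125 list (-0.04, 1 lower, and 0.0051 in column sums without miR-10b-5p) and the list of miR-15, miR-16, miR-322 and their relatives (-0.01, 1 higher and 1 lower, and above 0 under 4 of the other 5 scalings) were near the median of the 210. So were the mesenchymal list and the 5 members of the miR-202, miR-375 and miR-101 list (0.03), in which 2 were higher. The miR-7200 series had 2 members of at least 10 CPM at -0.34 and -0.18, and of the pluripotency clusters 0 of 2 reached it.

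The arms of a hairpin are made from the same precursor, and 30 hairpins had both arms at 10 CPM or more. Leaving out miR-465b, 15 of 29 had both arms on the same side of 0 and the median difference between arms was 0.24 on the log2 scale. In 6 of them the arms differed by at least 0.5. The widest gap was that of miR-21a, whose abundant 5p arm was higher (log2 0.26) and whose rare 3p arm was lower (-0.93), a difference of 1.19 (95% interval 0.83 to 1.55). miR-106b followed, with -0.62 for 5p and 0.18 for 3p, and then miR-99b, with 0.05 and -0.71. The arms of miR-126a differed by 0.65, both upwards.

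Of 30 groups of miRNA genes with neighbours within 10000 bases, 11 had all their members on the same side of 0. Only 19 of the 30 were larger than a pair, and the 11 included pairs. Of the 210 miRNAs, 101 lay above 0 and 109 below, so unrelated pairs would often share a side. Both arms of a hairpin counted as members, as for let-7d and miR-221. Whether 11 exceeded the number among unrelated miRNAs was not tested. Groups that lay wholly below 0 included let-7a, let-7d and let-7f on chromosome 13 (48536024 to 48538260), let-7b and let-7c on chromosome 15, and miR-221 and miR-222 on the X chromosome (19146307 to 19146923). Those wholly above 0 included miR-182 and miR-183 on chromosome 6 (30165962 to 30169732) and miR-449a and miR-449c on chromosome 13 (113036008 to 113037570). Mature miRNAs made from several loci, such as let-7c-5p, were counted at each. Base composition and length had little relation to the ratio. Over the 188 miRNAs of at least 10 CPM with a sequence, Spearman's rho was 0.03 with GC content and 0.02 with length, and over the 210 it was 0.07 with level, given as descriptions across miRNAs that share both libraries.

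The comparison was next set beside the testis before culture and the adult testis, libraries that the ratio of AlbuMAX I to KSR does not use. From T10 to T10-12K, 23 of the 210 miRNAs were 2-fold higher and 58 2-fold lower, and from T10 to T10-12A the counts were 27 and 62. The medians were -0.56 and -0.55. These counts share T10 and are given side by side. In CPM a far larger number of miRNAs thus differed 2-fold from the start of culture than between the supplements. The counts of lower miRNAs include the shift of the typical miRNA that these medians show, and no count without it was made. The standard deviation of the log2 ratios, which a common shift does not change, was 1.57 for T10-12K and 1.69 for T10-12A against T10. Between the supplements it was 0.65.

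By their level in TAD against T10, 36 miRNAs were at least 2-fold higher in TAD, 61 at least 2-fold lower and 112 in between, and miR-465b-5p, at 0 in both, was left out. Of the 36, 9 were 1.5-fold higher with AlbuMAX I and 4 lower, with a median of 0.02. Of the 61, 3 were higher and 11 lower, with a median of -0.10, and of the 112, 2 were higher and 0 lower. Level differed between these classes, with a median of the mean CPM of 80.3, 46.9 and 241, and 24 of the 30 calls were of miRNAs under 100 CPM. At 100 CPM or more, 5 of 16 of the first class were higher (0 lower), and of 23 of the second 1 was higher and 0 lower. Over all miRNAs, 7.14% of the 210 were higher and 7.14% lower, and 5.36% of those of at least 100 CPM were higher. The 5 included miR-126a-5p and miR-126b-3p, which are not independent, and the 9 included every listed entry of the miR-126 locus. These were counts in 1 pair of libraries, and the difference between classes was not tested.

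The miRNAs of the first class that were higher with AlbuMAX I included miR-146a-5p, miR-101a-3p, miR-126a-5p, miR-126b-3p and miR-29a-3p. For miR-101a-3p and miR-146a-5p the AlbuMAX I library overshot TAD, and for miR-29a-3p and miR-126a-5p it lay between KSR and TAD. For miR-126a-3p it was above KSR and close to TAD. miR-375-3p and miR-34c-5p, with 9015 and 20424 CPM in TAD, were by contrast lower with AlbuMAX I than with KSR. The 2 supplements thus did not order themselves along the difference between T10 and TAD in a uniform way.

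**Figure D4:**
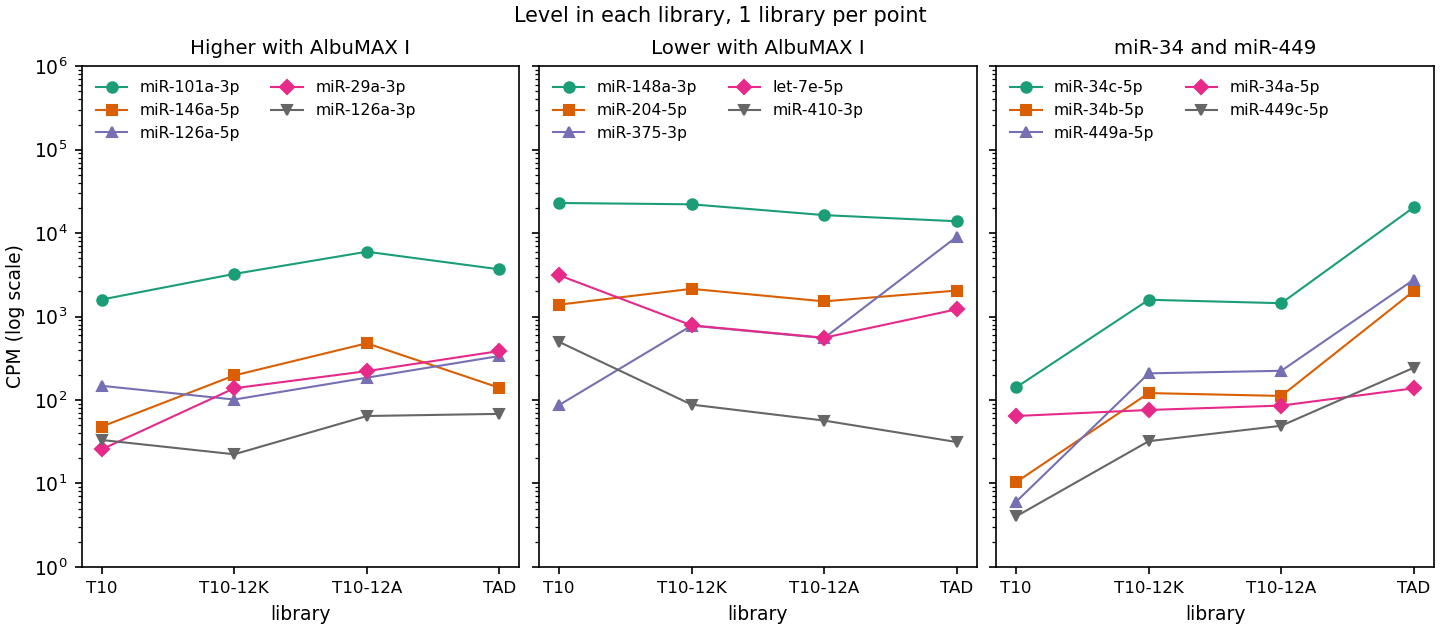
Each point is the CPM of 1 miRNA in 1 library, on a log axis, for T10, T10-12K, T10-12A and TAD, with lines joining the libraries of a miRNA and not a time course. In the left panel the AlbuMAX I point lies above the KSR point for all 5 miRNAs, in the middle panel under it, and in the right panel both cultures lie close together, with miR-34c-5p at 1588 and 1445 CPM between 142 CPM in T10 and 20424 CPM in TAD.

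The other pair of the study with the same supplements, T6-12A and T6-12K, came from 6.5 dpp testes and shares no library with the 10.5 dpp pair. Of 198 miRNAs with at least 10 CPM in both pairs, 101 (51.0%) had the same direction. At 6.5 dpp 112 were at least 1.5-fold higher with AlbuMAX I (56.6%) and 6 lower (3.03%), and the median log2 ratio was 0.70 in CPM. With median-of-ratios factors, 1 factor per library that keeps the level of the typical miRNA, it was 0.15. T6-12K stood apart in some miRNAs, with 28387 CPM of miR-10a-5p and 125 CPM of miR-196b-5p against 4137 and 7.04 CPM in T6-12A, and the comparison of ages rests on it. Across the 198, Pearson's r between the ages was 0.13, as a description.

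With median-of-ratios factors, 4 miRNAs were 1.5-fold higher at both ages, namely miR-101a-3p, miR-92b-3p, miR-6539 and miR-449c-5p, and 4 were lower at both, namely miR-410-3p, miR-708-3p, miR-218-5p and miR-21a-3p. Of all 198 miRNAs, 15 were higher and 11 lower at 10.5 dpp with these factors, and 42 and 26 at 6.5 dpp. In CPM 10 were higher at both and 0 lower, and the 10 included miR-101a-3p, miR-146a-5p, miR-126a-3p, miR-29a-3p and miR-1247-5p. Of all 198, 14 were higher and 12 lower at 10.5 dpp in CPM, and 112 and 6 at 6.5 dpp. Whether more miRNAs were shared than such shares would give by themselves was not tested. With median-of-ratios factors miR-101a-3p reached 0.75 in the 6.5 dpp pair and 0.90 in the 10.5 dpp pair. miR-146a-5p had 0.26 and 1.30, and miR-126a-3p 0.07 and 1.54, so these 2 miRNAs were past 1.5-fold at both ages in CPM and in the 10.5 dpp pair alone with these factors. Whether the ages differed was not tested, with 1 library for each condition.

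**Figure D5:**
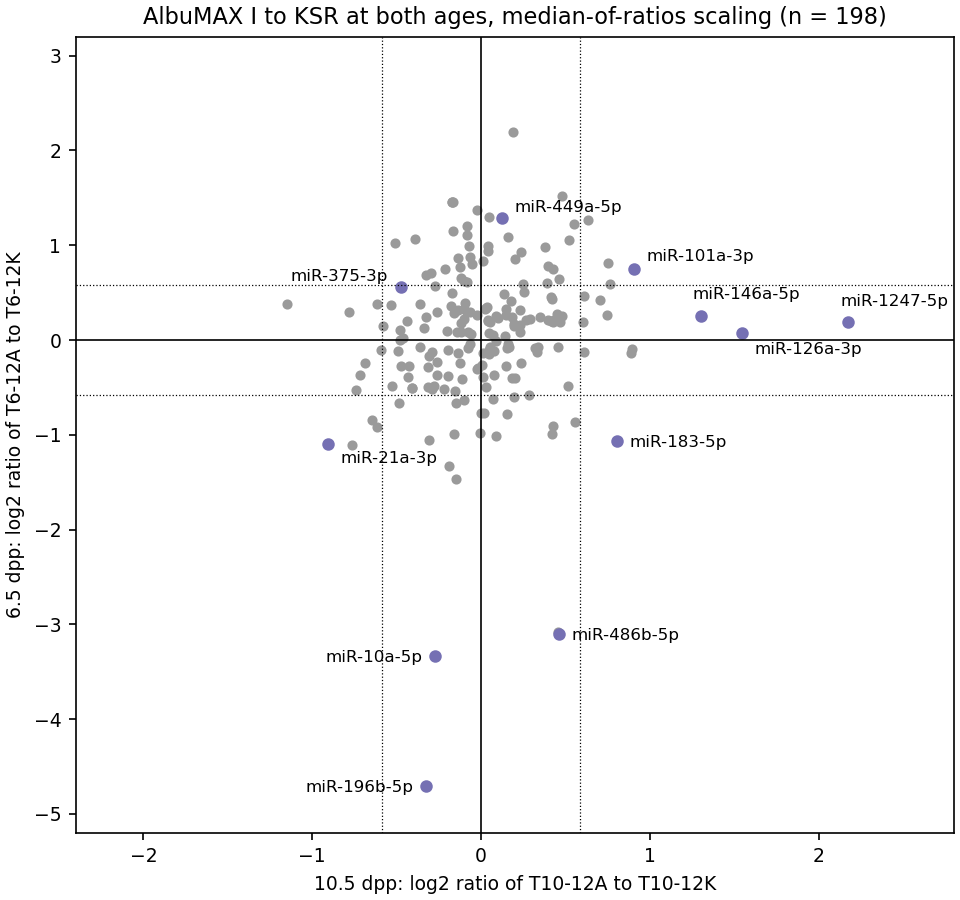
Each point is 1 of 198 miRNAs, with its log2 ratio of AlbuMAX I to KSR at 10.5 dpp on the x axis and at 6.5 dpp on the y axis, both with median-of-ratios factors, and dotted lines at 1.5-fold. The points show no common slope, miR-101a-3p (0.90 and 0.75) lies beyond 1.5-fold on both axes, and miR-486b-5p, miR-10a-5p and miR-196b-5p lie far below 0 on the y axis.

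The miRNAs at 0 in 1 library of the pair were, apart from miR-465b-5p, rare. The other 8 at 0 in T10-12K were miR-411-3p, miR-877-5p, miR-433-3p, miR-376b-3p, miR-144-5p, miR-205-5p, miR-129-5p and miR-7217-3p, with 5 to 17 reads in T10-12A. Those at 0 in T10-12A were miR-379-3p, miR-487b-3p and miR-33-5p, with 5 to 8 reads in T10-12K, and miR-141-3p with 31. With the 0 set to 5 reads, miR-141-3p, of the epithelial miR-200 family, was at least 7.41-fold lower with AlbuMAX I. For the other 11, reads were too few for a difference to be detectable at this depth.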

How the data were processed

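Small RNA libraries of 7 testis samples were sequenced by the authors, 1 per condition. Per the methods and the labels, adaptors were trimmed, read quality was assessed with FastQC, reads were aligned with Bowtie to the mouse genome (mm10) and then matched to miRBase 21, and miRNAs under 50 reads were discarded. HTSeq and DESeq are named in the submitters' processing notes, without a role. The deposited values are a signal, reads divided by 1 factor per library by the authors. How reads with several matches or on either strand were counted is not given in the sources used here. The 7 deposited sample files hold the same values as the deposited table, and the labels assigned each library to its condition.

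Reads were recovered by dividing each value by the largest step that divides the low values evenly. 100% of the values tested came out whole (within 0.1 read, up to 10000 reads). The 2 libraries compared held 7075528 and 8452588 such reads, and intervals and limits cover counting error only. CPM were computed on listed miRNAs, and a 0 was set to 5 reads. A miRNA whose mean reached 10 CPM was counted as higher or lower at 1.5-fold. Since each side was 1 library, the design assumed no test and none was run. The miRNAs named were the 10 largest increases and decreases of at least 100 CPM, the 5 largest of each from 10 to under 100 CPM, the 10 most abundant, 9 that the study names, those at 0 in 1 library and members of 25 lists. The members and lists were chosen with earlier results of these data known. miRNAs named outside this rule, such as the remaining calls past 1.5-fold, were chosen after their values were seen.

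Sequences came from RefSeq (GRCm38.p6), matching 288 of 331 miRNAs, and gene overlaps from GENCODE release 21. The build of the sequences is that of mm10 (GRCm38). The computing, tested on simulated data, ran in pandas 2.3.3 and numpy 2.4.6 under Python 3.11.15, with scipy 1.17.1 for rank correlations and matplotlib 3.10.9 for plots. Alternatives were median-of-ratios factors, trimmed mean of M-values (trimming 30% of ratios and 5% of levels), column sums without the most abundant miRNA, the values as deposited, pseudocounts of 1 and 10 CPM, other filters on level and other fold limits.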

Additional observations from a re-analysis of the deposited data

Results flagged for a closer look

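For 11 of the 43 named miRNAs that had reads in all 4 cultured libraries, the log2 ratio of AlbuMAX I to KSR lay on opposite sides of 0 at 6.5 and 10.5 dpp, beyond counting error, whether scaled to column sums or by median-of-ratios factors. Among all 198 miRNAs compared between the ages, only 101 shared a direction under the first scaling and 109 under the second. Opposite directions were thus common, although how many of the 198 lay beyond counting error was not counted. Many of the 43 were also named because their ratios at 10.5 dpp were large. The 11 are therefore not shown to be a larger share than among all miRNAs. The difference between ages was not tested, since each of the 4 libraries is alone in its condition.

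The ratio at 6.5 dpp minus that at 10.5 dpp, in CPM, was -2.98 for miR-486b-5p and -2.96 for miR-486a-5p, with 2571 CPM of miR-486b-5p in T6-12K against 442 CPM in T6-12A. It was 1.61 for miR-375-3p, 1.35 for miR-34c-5p, 2.07 for miR-880-3p, 1.21 for miR-98-5p, 1.06 for miR-22-3p and 0.90 for let-7a-5p, all lower with AlbuMAX I at 10.5 dpp and higher at 6.5 dpp. It was -1.29 for miR-183-5p, -0.28 for miR-21a-5p and -0.11 for miR-10b-5p, all higher at 10.5 dpp and lower at 6.5 dpp. For miR-880-3p the 6.5 dpp libraries held 4.33 and 9.17 CPM, so its ratio rests on few reads.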

How the results depend on the processing

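Under the alternatives, 0 of the 43 named miRNAs changed sign, which these alternatives could not have brought about. The scalings raised all ratios by at most 0.05, while the smallest negative ratio was -0.12 (let-7a-5p). A pseudocount added to both levels cannot change a sign. The median changed sign in 23 of 171 values, which belonged to 6 results: all miRNAs, the lists of miR-34 and miR-449, of the X-linked cluster, of miR-15, miR-16 and relatives, of miR-99/100 and miR-125, and of miR-202, miR-375 and miR-101. All 6 medians had been within 0.05 of 0. Of 213 summary values, 24 moved by over 1.5 times (counts) or by more than the counting interval (medians) and are given here, and 62 values of named miRNAs moved by more than their counting intervals. With log2(CPM + 10) these were miR-1247-5p (2.16 to 1.13), miR-126a-3p (1.52 to 1.20), miR-1198-5p (-1.17 to -0.71) and miR-880-3p (-0.99 to -0.67). With the other 5 scalings, 16 miRNAs were 1.5-fold higher and 11 to 15 lower.

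Column sums without miR-10b-5p gave a median log2 ratio of -0.17 for the let-7 and miR-98 list and 0.0051 for the miR-99/100 and miR-125 list. With log2(CPM + 10), 3 miRNAs were 1.5-fold lower, 1 of them among those lower in TAD. Without a filter on level, 45 were higher and 48 lower, of which 15 and 30 were also higher and lower, respectively, in TAD than in T10, and the medians of the miR-99/100 and miR-125 list and of the list of the miR-148 and miR-130 families were -0.088 and -0.30. With at least 100 CPM, 6 were higher and 0 lower, of which 5 and 0 followed TAD, and the medians were -0.23 for the miR-202, miR-375 and miR-101 list, 0.38 for hypoxia and inflammation, 0.58 for epithelium, -0.12 for the Hox clusters, 0.025 for the miR-99/100 and miR-125 list and -0.33 for the list of the miR-148 and miR-130 families, over fewer members. At 2-fold, 4 were higher and 1 lower. With TAD and T10 4-fold apart, 4 and 6 followed TAD. The changes with other filters and limits come with fewer or more miRNAs counted. Column sums without miR-10b-5p raised every ratio by 0.047, and a pseudocount by its definition shrinks ratios, most of all at low levels.

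Leaving out a replicate was not possible with 1 library per condition. No paired analysis was possible because the groups share fewer than 2 replicate numbers and no test was run. Depth limits values under 10 CPM.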
